A study of Mus musculus with 2 samples.

Results

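Genes of iron uptake, storage and export were followed through the cells of mouse small intestine: Cybrd1, Slc11a2, Tfrc, Fth1, Ftl1, Hmox1, Heph and Slc40a1. They were taken by gene symbol, each symbol matched 1 gene, and they are 8 of the 56980 genes counted. Expression was measured by droplet single-cell RNA sequencing (10x Genomics) in 1 library labelled control and 1 labelled model, with whole small intestine as the labelled tissue. The series title names gut immune disorders, radiation with simulated microgravity, and CB001 bioactive compounds. The labels give no treatment, strain, sex, age or number of animals for either library and name no stretch of the intestine. Mesentery and Peyer's patches had been removed from the gut of both groups. Since each group is a single library, nothing could be tested, and every difference below compares these 2 libraries without a replicate check.

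The intestine is where the body's iron enters, and the enterocyte, the absorptive cell of the villus, carries it across. Ferric iron at the brush border is reduced by the reductase encoded by Cybrd1 and imported by the transporter encoded by Slc11a2 (DMT1), is held inside the cell in ferritin, a shell of heavy (Fth1) and light (Ftl1) chains, or leaves through ferroportin (Slc40a1), with hephaestin (Heph) oxidising it on the way out. Dividing crypt cells take iron from the blood through the transferrin receptor (Tfrc), while macrophages recover iron from haem with haem oxygenase (Hmox1) and release it through ferroportin. Iron regulatory proteins bind hairpins called iron-responsive elements in several of these transcripts, where they block translation from a 5′ UTR and protect the transcript from a 3′ UTR.

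Those hairpins are shown because they tie the storage, uptake and export genes to 1 known control. The search pattern was C, 5 bases of stem, the loop CAGTGN and 5 bases that pair with the stem (G-T pairs allowed), 17 bases in all, read on the sense strand of GENCODE M21 transcripts (mouse build GRCm38). The capitals mark the first 5 bases of the loop. Such a pattern occurred in 294 of 21877 protein-coding genes (1.34%), in the 5′ UTR of 31 (0.142%) and in the 3′ UTR of 129 (0.590%). Among the members it occurred in the 3′ UTR of Tfrc, in its last exon (19 of 19), and in the 5′ UTRs of Fth1, Ftl1 (exon 1 of 4) and Slc40a1 (exon 1 of 8). A match is a description of the letters and was not tested for binding, and nothing is drawn from the absence of a match in the other 4 members.
Tfrc, chr16:32631225-32631241, plus strand: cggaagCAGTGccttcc
Tfrc, chr16:32631604-32631620, plus strand: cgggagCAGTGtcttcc
Tfrc, chr16:32631669-32631685, plus strand: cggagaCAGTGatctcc
Tfrc, chr16:32631716-32631732, plus strand: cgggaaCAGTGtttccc
Fth1, chr19:9982738-9982754, plus strand: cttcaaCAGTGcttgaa
Ftl1, chr7:45459785-45459801, minus strand: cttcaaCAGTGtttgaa
Slc40a1, chr1:45925471-45925487, minus strand: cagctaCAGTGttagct

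The control library held 7329 kept cells with a median of 3636 UMIs (unique molecular identifiers, barcodes that let each captured transcript be counted once), and the model library 7913 cells with a median of 3761. The median mitochondrial share of UMIs was 10.8% in control and 5.38% in model cells. Cells were clustered together and clusters were named from marker genes, with "-like" because the names rest on transcripts alone. The 3 classes followed most closely were enterocyte-like cells (1814 control and 1266 model cells, clusters 2, 13 and 20), crypt stem or transit-amplifying-like cells (631 and 757, cluster 7) and macrophage or monocyte-like cells (217 and 202, cluster 17). Levels are UMIs of a gene per 1000000 UMIs of the class (CPM), and intervals are exact 95% intervals that cover counting error only. A gene was called higher or lower when the model over control ratio was at least 1.5 or at most its inverse with an interval excluding 1, among genes with at least 20 UMIs in both libraries together. Kept cells of the 2 libraries shared 12 barcode sequences.

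Tfrc was highest in the crypt, Heph in enterocyte-like cells, Fth1, Ftl1 and Hmox1 in macrophages, and Slc40a1 in macrophages and fibroblast-like cells. Over both libraries, Tfrc stood at 292.1 CPM in crypt-like cells (286 to 298), and was the highest class in each library (241 CPM in control and 333 in model cells). The class in second place differed between the libraries: in the control it was plasmacytoid dendritic cell-like cells (200 CPM on 64 UMIs), and in the model tuft-like cells (164 CPM) and enteroendocrine-like cells (159 CPM). Over both libraries Tfrc was lowest in plasma cell-like cells, at 9.39 CPM. Slc11a2 had no single leading class: over both libraries it stood at 42.9 CPM in NK or innate lymphoid-like cells (22.2 to 75.0, on 12 UMIs), 36.4 in macrophages (28.1 to 46.5) and 32.7 in enterocyte-like cells (30.5 to 35.1), with overlapping intervals. Heph stood at 153 CPM in enterocyte-like cells (149 to 158), 119 in tuft-like cells (100 to 140), 58.7 in goblet-like cells and 19.0 in crypt-like cells. The enterocyte value lay above the tuft value, whose interval did not reach it, and in the control library alone the tuft-like cells had 81 UMIs and 134 CPM against 154 in enterocyte-like cells.

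Hmox1 was close to a macrophage transcript. It stood at 129 CPM there (112 to 147) and next at 15.5 CPM in endothelial-like cells, on 10 UMIs. Slc40a1, the exporter, stood at 65.5 CPM in macrophage or monocyte-like cells (54.1 to 78.6) and at 59.4 CPM in fibroblast-like cells (44.1 to 78.4). Those 2 classes did not differ beyond counting error, and the next class, enteroendocrine-like cells, stood at 9.18 CPM. The fibroblast value was alike in both libraries, 58.9 CPM on 37 control UMIs and 61.1 CPM on 13 model UMIs. It lay above the macrophage value in the control library (52.6 CPM) and below it in the model library (80.0 CPM). Cybrd1 was nearly absent, with 54 UMIs in all kept cells of both libraries, 7 of them in enterocyte-like cells and 8 in fibroblast-like cells. No UMI of it was seen in macrophages, where a count of 0 allows up to 3.96 CPM for control and 4.47 CPM for model cells.

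Both ferritin chains were seen in every class. Fth1 was highest in macrophages, at 9360 control and 10033 model CPM, followed by plasmacytoid dendritic cell-like cells at 7659 and 9164. Dendritic cell-like cells (7459 and 6438 CPM) lay above enterocyte-like cells (4689 and 8806) in the control library and below them in the model library. Ftl1 stood at 4154 CPM in macrophages, and the next class, dendritic cell-like cells, at 1393. Of the ferritin UMIs, Fth1 made up 88.3% in control and 88.8% in model enterocyte-like cells, 84.9% and 86.5% in crypt-like cells and 70.8% and 69.1% in macrophages. Plasma cell-like cells stood apart at 37.3% and 39.9%. These are shares of UMIs within a class and say nothing of protein. A pseudogene copy, Ftl1-ps1, drew 463 control and 637 model UMIs against 91375 of Ftl1 in all, so a small part of the Ftl1 signal could be split between copies.

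**Figure D1:**
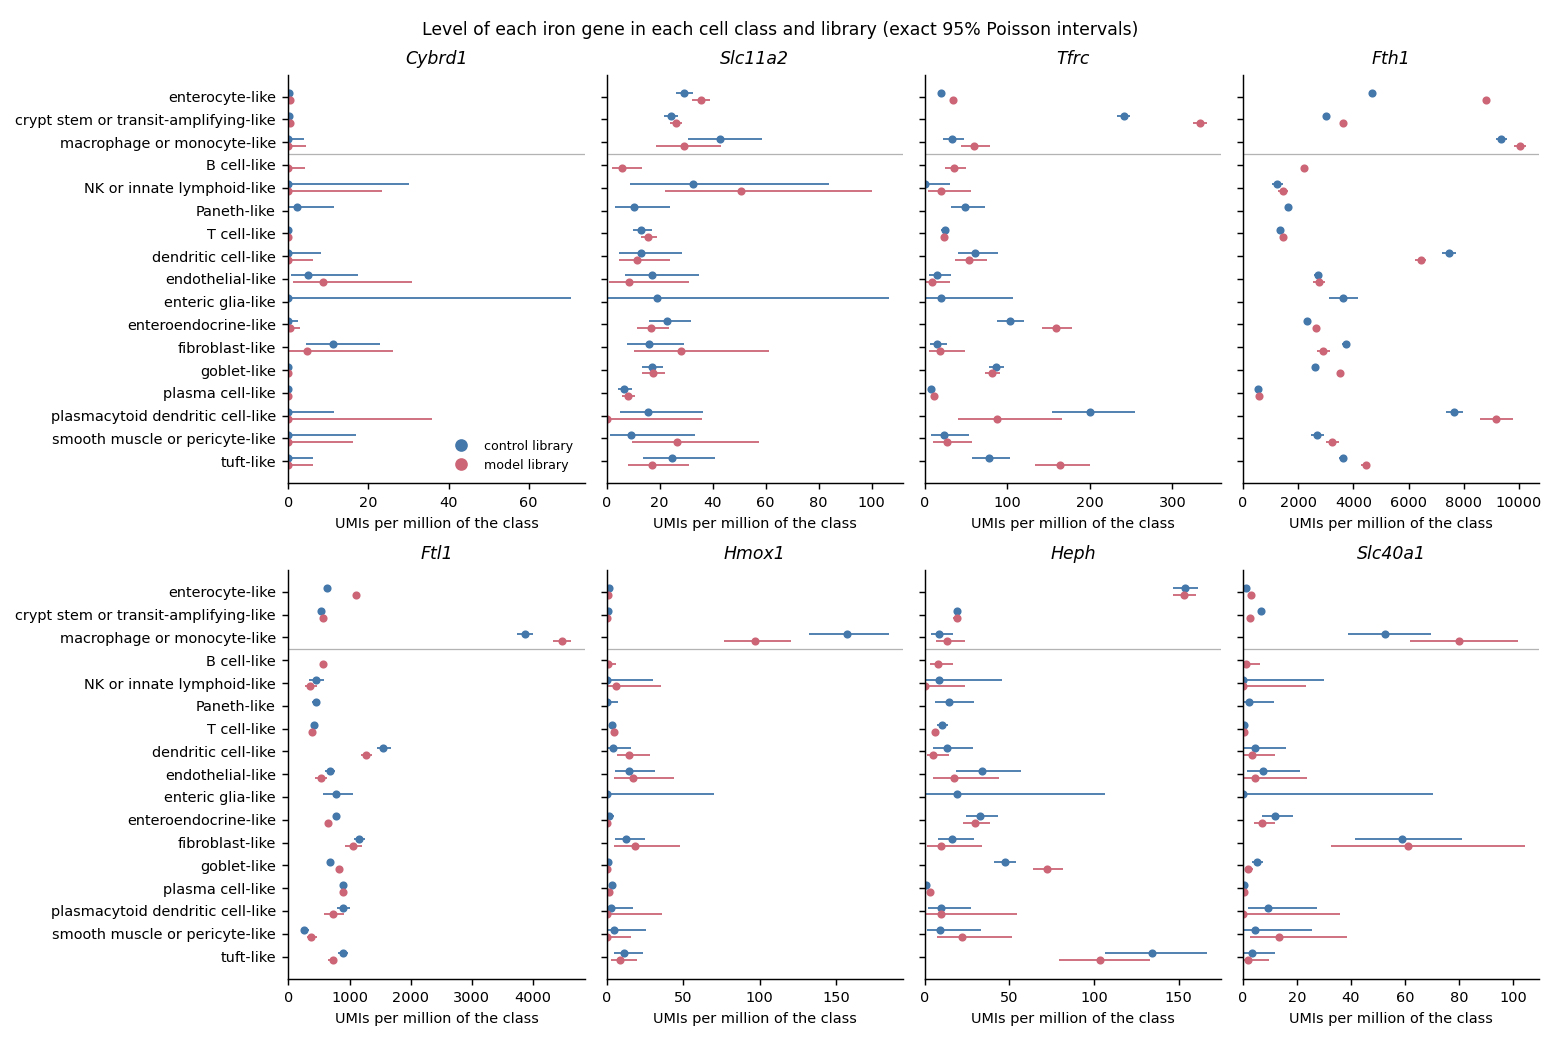
Level of each gene (CPM, linear axes) in 17 cell classes, as points for the control and model library with exact 95% Poisson intervals; the 3 classes above the line are those followed most closely, and classes with under 20 cells in a library lack its point. Tfrc peaks in crypt-like cells, Heph in enterocyte-like and tuft-like cells, and Hmox1 and Ftl1 in macrophages, while the Slc40a1 intervals of fibroblast-like cells and macrophages overlap.

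The likeness of other genes was measured as the Pearson r of log2(CPM + 10) over the 30 clusters, a description that shares library, depth and cluster borders. Heph ran closest to Vil1 (r = 0.93), which encodes the brush-border protein villin, then Cdhr5 and Tmc5 (both 0.92). Hmox1 ran closest to the macrophage mannose receptor Mrc1 (0.89), C6 (0.89) and the chemoattractant receptor Cmklr1 (0.89). Tfrc ran with Ccdc58 (0.94), the mitochondrial import chaperone Timm9 (0.92) and Gvin-ps1 (0.92), and Slc40a1 with the matrix protease Mmp14 (0.79), Cmklr1 (0.78) and Slco2b1 (0.78). For Fth1 the nearest were Tspan31 (0.86), Bri3 (0.86) and the lysosomal Hexa (0.84), for Ftl1 the proton pump subunit Atp6v0c (0.77), Ftl1-ps1 (0.74) and Ifi211 (0.74), and for Slc11a2 the mitochondrial deacetylase Sirt3 (0.82), the amino acid carrier Slc7a8 (0.79) and Ckb (0.74).

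In enterocyte-like cells taken whole, both ferritin genes, Tfrc and the scarce Slc40a1 were higher in the model library, while the apical importer Slc11a2 and the export oxidase Heph were not called. Of the 7 members with enough UMIs, 4 were called higher (Tfrc, Fth1, Ftl1 and Slc40a1) and 0 lower. Over all 11969 genes tested in this class, 15.6% were called higher and 9.32% lower, and the median log2 ratio was 0.10 against 0.83 for the members. Fth1, the heavy chain, stood at 4689 CPM in the control and 8806 CPM in the model library, a ratio of 1.88 (1.86 to 1.90). Ftl1, the light chain, stood at 624 and 1107 CPM, a ratio of 1.77 (1.72 to 1.83). Both chains were thus higher by nearly the same factor when the class was taken whole.

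Uptake genes differed less evenly. Tfrc had 212 control and 449 model UMIs in enterocyte-like cells, 19.3 and 34.4 CPM, a ratio of 1.78 (1.51 to 2.11), called in 10 of 15 alternatives. Slc11a2, the apical importer, had 322 and 464 UMIs, 29.3 and 35.5 CPM, and its ratio of 1.21 (1.05 to 1.40) stayed under the limit. Cybrd1 had 1 and 6 UMIs, too few for a ratio. A UMI of Slc11a2 was seen in 13.5% of control and 24.3% of model cells, and in 2.22% and 2.67% when each cell was thinned to 1000 UMIs (55 control and 31 model cells, those with fewer UMIs, were left out). Median depths were 4308 and 6995 UMIs a cell. In T cell-like cells, where thinning left 1.16% and 1.52%, the medians were 3256 and 2773 UMIs.

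Export genes stood far apart from each other in these cells. Heph had 1688 and 2000 UMIs, 154 and 153 CPM, with a ratio of 1.00 (0.933 to 1.06). It was present in 13.9% of control and 13.1% of model cells thinned to 1000 UMIs, against 0.895% and 0.357% of T cell-like cells. Unthinned shares were 48.5% and 62.2% in enterocyte-like and 3.41% and 1.64% in T cell-like cells. Slc40a1 had only 13 UMIs in 1814 control cells and 38 in 1266 model cells, 1.18 and 2.91 CPM, a ratio of 2.46 (1.28 to 5.03). A UMI of it was seen in 0.551% and 2.21% of enterocyte-like cells, 0.0569% and 0.405% after thinning, and in 0.175% and 0.0863% of T cell-like cells. The thinned values rest on 1 and 5 cells and are read as no difference. Hmox1 had 16 and 14 UMIs in enterocyte-like cells, 1.46 and 1.07 CPM, below the 3.81 and 4.71 CPM of T cell-like cells.

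**Figure D2:**
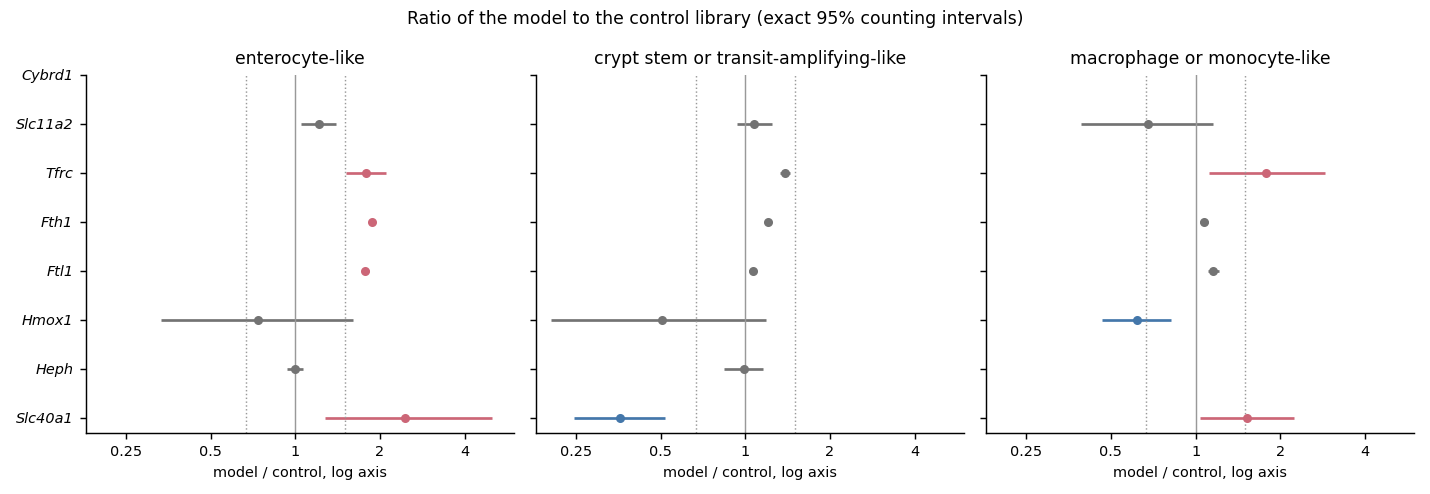
Model over control ratio (log axis) of each gene with at least 20 UMIs, in 3 classes, with exact 95% counting intervals; the dotted lines stand at 1.5 and its inverse, and red and blue points were called higher and lower. Cybrd1 had too few UMIs in each class and Heph in macrophages, so they have no point; Slc40a1 lies to the right in enterocyte-like cells and macrophages and to the left in crypt-like cells.

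The make-up of the enterocyte class differed between the libraries, and the ferritin values moved with it. Cluster 2, led by Cyp1a1, Reg3a and Fabp1, held 308 control and 845 model cells, cluster 13, led by the distal genes Plb1, Cubn and Tmigd1, held 1007 and 284, and cluster 20, with the villus-tip genes Ada and Nt5e among its leading genes, 499 and 137. Cluster 3, with 3 of 10 enterocyte markers, was left unnamed for its low median of 821 UMIs and lies outside the class. It held 1204 control and 30 model cells, with Fth1 at 3236 and 1998 CPM and Tfrc at 72.7 and, on 2 UMIs, 83.2 CPM. Of 12 genes of the proximal intestine, 6 were called higher in the model enterocytes and 0 lower; of 11 measured distal genes, 0 were higher and 7 lower. Plb1 had 1417 control UMIs and 1 model UMI, and the proximal regulator Pdx1 7 and 63. Genes of the villus bottom were called higher in 7 of 8 cases and lower in 0, those of the tip lower in 6 of 7 and higher in 0. The summed level was 22884 and 35683 CPM for the proximal list, 4284 and 3391 for the distal, 15551 and 32208 for the bottom and 2808 and 1660 for the tip list. Fabp6, a distal gene, had 10 UMIs in control and 0 in model enterocyte-like cells. The part of region and villus height in the members' differences was not tested beyond the matched values that follow.

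Fth1 depended strongly on the cluster. In control cells it stood at 9903 CPM in cluster 2, 2107 CPM in cluster 13 and 801 CPM in cluster 20. In model cells it stood at 10024, 3234 and 2016 CPM. The ratio was therefore 1.01 (1.00 to 1.02) in cluster 2, 1.53 (1.48 to 1.59) in cluster 13 and 2.52 (2.34 to 2.71) in cluster 20. Most model enterocytes lay in the cluster where both libraries were alike, and most control enterocytes in the 2 clusters where the level was low. Ftl1 followed the same order, with ratios of 1.18 (1.14 to 1.22), 1.36 (1.26 to 1.47) and 1.75 (1.53 to 2.01). Make-up still differed within the clusters. The proximal list summed to 33050 control and 37623 model CPM in cluster 2, 15679 and 24153 in cluster 13 and 20469 and 31257 in cluster 20. For the villus-bottom list the sums were 21750 and 37898, 15121 and 6060, and 4646 and 781 CPM. The cluster ratios are thus not matched for position. With the 3 clusters weighted equally the Fth1 ratio was 1.19 (1.18 to 1.21) and the Ftl1 ratio 1.32 (1.27 to 1.37), both under the limit. Tfrc then had a ratio of 1.25 (0.995 to 1.56), and Slc40a1 kept a ratio of 1.82 past the limit but with an interval from 0.792 to 4.16 that included 1, so 0 of the members with enough UMIs were called.

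Bins of the enterocyte-like cells gave values at a similar villus height, in a similar region, or at both. Each cell was scored for villus height and for region from the lists above, which hold no member, and the 3080 cells were cut into 3 equal bins on each score. A bin is a range and not a cell type, and 434 and 450 cells lay within 0.1 SD of a cut. From the lower to the upper villus bin, Fth1 went from 8530 to 3360 to 1184 CPM in control and from 10319 to 6592 to 2985 CPM in model cells. The ratio was 1.21 in the lower, 1.96 in the middle and 2.52 in the upper bin. These villus bins were not matched for region: of the upper bin, 455 of 726 control but 20 of 301 model cells lay in the distal bin. By region the Fth1 ratio was 1.08 in the proximal, 1.41 in the middle and 1.07 in the distal bin, which held only 31 model cells. The region bins were not matched for villus height: of the proximal bin, 131 of 318 control but 472 of 709 model cells lay in the lower villus bin. At matched height and region together, the lower proximal cells (131 control and 472 model) stood at 11176 and 10886 CPM, a ratio of 0.974 (0.960 to 0.988), while the upper proximal cells (54 and 80) stood at 2661 and 4162 CPM, a ratio of 1.56 (1.44 to 1.71). Cells of the middle villus bin had ratios of 1.12 (1.08 to 1.15) in the proximal and 1.42 (1.355 to 1.49) in the middle region, neither called. Matched for both, Fth1 was thus alike at the villus base and called higher in the model library in the upper proximal cells and, at 1475 and 2497 CPM, in the upper cells of the middle region.

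Other members followed different courses over the epithelium. Tfrc stood at 241 control and 333 model CPM in the crypt cluster, 230 and 291 in cluster 8, 32.9 and 39.2 in cluster 2 and 14.8 and 8.27 in cluster 13. Cluster 8 carries no class name, is led by Gsdmc4, Gsdmc2 and Car4 and has S100g, a calcium-binding protein of absorptive cells, among its leading genes. Within cluster 2 the Tfrc ratio was 1.19 (0.978 to 1.46), in cluster 13 it was 0.558 (0.283 to 1.01), and in cluster 20 there were 8 and 11 UMIs. In the villus bins Tfrc was not called. Its ratio was 1.12 (0.934 to 1.35) in the lower bin, on 163 and 411 UMIs. It was 1.17 (0.661 to 2.05) in the middle and 1.95 (0.888 to 4.28) in the upper bin. By region Tfrc was called higher in the proximal bin (17.9 and 32.4 CPM, ratio 1.82, 1.37 to 2.43). It was also called higher in the distal bin, on 65 and 5 UMIs. These region bins were not matched for villus height. The middle region bin was not called (ratio 1.39, 1.06 to 1.83). At matched height and region, lower proximal cells were called higher (23.3 and 38.0 CPM, ratio 1.63, 1.20 to 2.25). Lower cells of the middle region stood at 70.0 and 65.7 CPM (ratio 0.939, 0.702 to 1.26). Heph was close in level from cluster 2 (158 and 156 CPM) to cluster 13 (161 and 160) and was lower in cluster 20 (129 and 94.96). Slc11a2 stood at 36.2 and 39.0 CPM in cluster 2, 32.9 and 25.4 in cluster 13 and, on 16 and 1 UMIs, at 7.73 and 1.53 in cluster 20. Slc40a1 was highest in cluster 8, where 156 control and 140 model UMIs gave 27.2 and 13.9 CPM, a ratio of 0.510 (0.403 to 0.645), and had 8 and 36 UMIs in cluster 2 with a ratio of 1.65 (0.756 to 4.12).

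**Figure D3:**
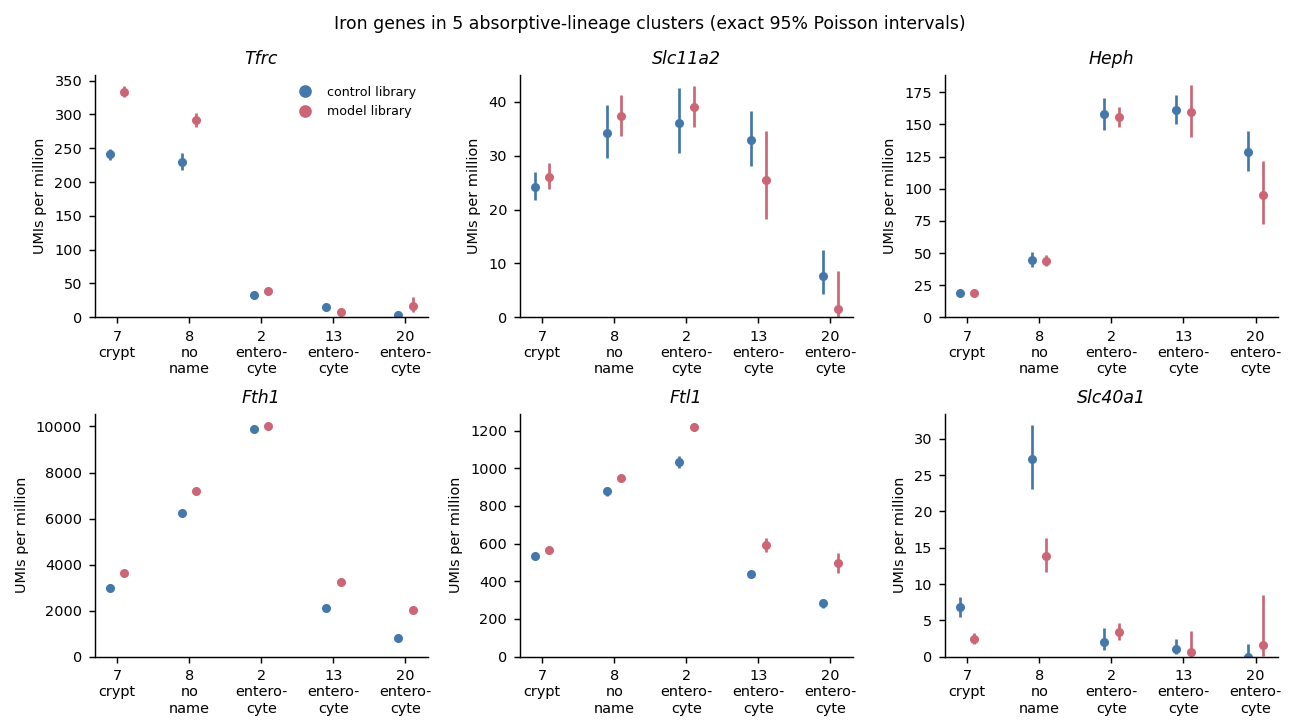
Level of 6 genes (CPM, linear axes from 0) in crypt cluster 7, unnamed cluster 8 and enterocyte clusters 2, 13 and 20, for each library with exact 95% Poisson intervals; the clusters are set side by side with no tested order. Tfrc is high in clusters 7 and 8, Heph in the 3 enterocyte clusters, and Slc40a1 in cluster 8, where the control point (27.2) lies above the model point (13.9).

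Mitochondrial share differed between the libraries and between the clusters. Enterocyte-like cells taken whole had a median share of 18.0% among control and 15.4% among model cells. In cluster 2 the medians were 12.95% in control and 10.7% in model cells. The order was reversed where Fth1 was called higher, with 19.0% and 21.2% in cluster 13 and 17.9% and 21.2% in cluster 20. Of the whole class, 10.1% of control against 31.8% of model cells lay at or under 10%. Those cells were mostly of cluster 2 (103 control and 395 model cells, against 55 and 3 of cluster 13 and 25 and 4 of cluster 20), so a limit of 10% also takes away most of the clusters where Fth1 differed. With a limit of 10%, clustering left 171 control and 377 model enterocyte-like cells, and 0 members were called: the log2 ratio of Fth1 was 0.11 and that of Ftl1 0.26. Library and group cannot be told apart.

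**Figure D4:**
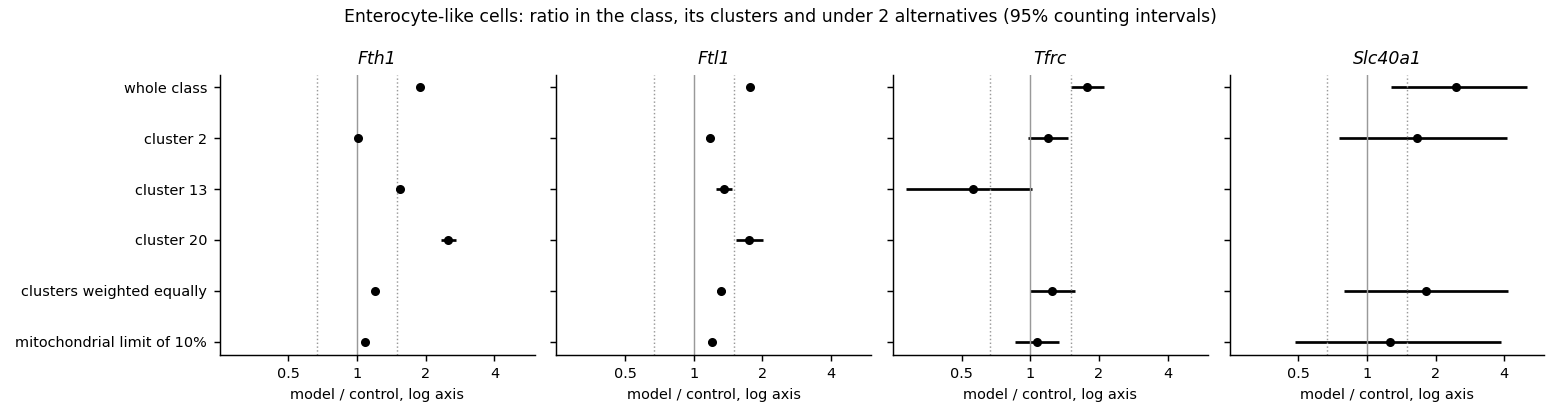
Model over control ratio (log axis, 95% counting intervals) of 4 genes in the whole enterocyte-like class, in each of its clusters with at least 20 UMIs of the gene, with the clusters weighted equally, and at a mitochondrial limit of 10%; the dotted lines stand at 1.5 and its inverse. Fth1 goes from 1.88 in the whole class to 1.01 in cluster 2 and 2.52 in cluster 20.

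In crypt-like cells the exporter was lower in the model library and the other members lay closer together. Of 7 measured members, 0 were called higher and 1, Slc40a1, lower; over all 13905 genes tested 1.71% were called higher and 3.99% lower. The median log2 ratio was 0.09 for the members and −0.04 for all genes. Slc40a1 had 99 control and 44 model UMIs, 6.79 and 2.43 CPM, a ratio of 0.358 (0.245 to 0.516). It was called lower in 12 of the 13 alternatives with enough UMIs, the exception being a mitochondrial limit of 10%, where the log2 ratio was −0.999 with an interval from −2.07 to 0.021. Among the 631 control cells 57 had a UMI of it, among the 757 model cells 38, and the 3 cells with most UMIs held 20 and 7 of them. After thinning only 2 control cells and 0 model cells were left with a UMI, so the difference was not detectable at that depth. Median depths were close, 18136 and 17893 UMIs a cell.

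Sub-clusters of the crypt cells showed where the Slc40a1 UMIs lay. Sub-cluster 4, led by the absorptive genes Rbp2 and Sis, held 75 of them, 14.4 CPM in 120 control and 4.65 CPM in 128 model cells, a ratio of 0.322 (0.190 to 0.533). Ratios in sub-cluster 1, led by DNA replication genes such as Mcm6, sub-cluster 2, led by mitotic genes such as Ccnb1, and sub-cluster 3, led by F3 and Areg, were 0.458 (0.201 to 1.01), 0.310 (0.0873 to 0.910) and 0.184 (0.0200 to 0.826). In sub-cluster 0, led by the stem cell gene Lgr5, there were 3 and 1 UMIs. Goblet-like cells also had fewer UMIs of it in the model library, 23 and 7, or 5.03 and 1.81 CPM, a ratio of 0.360 (0.131 to 0.867). Slc40a1 was thus called lower in crypt-like cells, goblet-like cells and the unnamed clusters 8 and 4. Cluster 4, with a low median of 1324 UMIs a cell, had 22 and 14 UMIs of it. These gave 18.6 and 8.31 CPM, a ratio of 0.447 (0.211 to 0.913). Enteroendocrine-like cells, with 18 and 14 UMIs, had a ratio of 0.609 (0.280 to 1.30) and were not called.

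Tfrc was higher in model crypt cells without reaching the limit. It had 3512 control and 6038 model UMIs, 241 and 333 CPM, a ratio of 1.38 (1.33 to 1.44). The ratio was 1.38, 1.26, 1.47, 1.61 and 1.26 in sub-clusters 0 to 4, and the limit was passed only in sub-cluster 3 and in a small group of 28 cells with immune genes (2.13). Among secretory and tuft cells the values were mixed. Tfrc was called higher in enteroendocrine-like cells (103 and 159 CPM, ratio 1.55) and in tuft-like cells (77.9 and 164 CPM, ratio 2.11), but goblet-like cells, the largest of these classes, stood at 86.5 and 81.2 CPM (ratio 0.939, 0.807 to 1.09). By contrast plasmacytoid dendritic cell-like cells were called lower on 64 and 9 UMIs (ratio 0.439, 0.192 to 0.887). Fth1 stood at 3003 and 3618 CPM in crypt-like cells (ratio 1.21) and Ftl1 at 534 and 567 (1.06). Heph, at 19.1 and 18.8 CPM, had a ratio of 0.984 (0.838 to 1.16), Slc11a2, at 24.3 and 26.1, of 1.08 (0.936 to 1.24), and Hmox1 had 16 and 10 UMIs. Heph was called higher in goblet-like cells (47.2 and 72.4 CPM, ratio 1.53, 1.28 to 1.84).

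Region genes differed in the crypt too. Of the proximal list, 7 of 11 measured genes were called higher in model crypt cells and 0 lower, and of the distal list 6 of 10 lower and 0 higher, with summed levels of 706 and 1174 CPM and of 348 and 291 CPM. Their part in the Slc40a1 and Tfrc values was not tested.

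In macrophage or monocyte-like cells the haem-degrading enzyme was lower and the exporter and transferrin receptor higher in the model library. Of 6 measured members 2 were called higher and 1 lower, against 6.67% higher and 4.3% lower of all 7785 genes tested. The median log2 ratio was 0.16 for the members and 0.07 for all genes. Hmox1 had 146 control UMIs in 68 cells and 80 model UMIs in 48 cells, 157 and 97.0 CPM, a ratio of 0.618 (0.465 to 0.818). Slc40a1 had 49 and 66 UMIs, 52.6 and 80.0 CPM, a ratio of 1.52 (1.03 to 2.25), just past the limit and called higher in 6 of 15 alternatives. Tfrc had 31 and 49 UMIs, 33.3 and 59.4 CPM, a ratio of 1.78 (1.12 to 2.89). Of the Tfrc UMIs, 8 and 11 lay in sub-cluster 5, 18 cells led by the epithelial genes Reg1 and Olfm4, and 0 in sub-cluster 4, 13 cells led by T cell genes. Without both groups, an alternative chosen after seeing the data, the log2 ratio of Tfrc was 1.02. Sub-cluster 3, of low-RNA cells, held 0 control and 9 model UMIs of it. In the larger sub-clusters 0 and 2 the Tfrc ratios were 1.54 (0.575 to 3.99) and 1.93 (0.861 to 4.61). With these 2 weighted equally the ratio was 1.73 (0.981 to 3.05). All 3 of these intervals included 1. The Tfrc call was made in 11 of the 15 alternatives and the Hmox1 call in 12.

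The remaining macrophage members differed little or were few. Fth1 stood at 9360 and 10033 CPM (ratio 1.07, 1.04 to 1.10) and Ftl1 at 3867 and 4478 CPM (1.16, 1.11 to 1.21). Slc11a2, which in macrophages moves iron out of endosomes, had 40 and 24 UMIs and a ratio of 0.677 (0.391 to 1.15). Heph had 8 and 11 UMIs, of which 8 and 9 lay in that epithelial-gene sub-cluster. Shares of cells with a UMI of Hmox1 were 31.3% and 23.8%, and 10.3% and 10.7% once cells were thinned to 1000 UMIs. For Slc40a1 they were 15.2% and 17.8%, and 5.95% and 7.14% thinned. T cell-like cells, which stand for the level of free RNA, gave 1.31% and 1.38% for Hmox1. Thinned CPM no longer separated the libraries: the log2 ratio of Hmox1 was 0.028 on thinned cells and 0 members were called.

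Hmox1 and Slc40a1 were not carried by the same macrophages in equal measure. Sub-cluster 0, led by Cd163, Ccl7 and Cd36, had 235 CPM of Hmox1 and 53.9 of Slc40a1, while sub-cluster 2, led by Lyz1, Gpm6b and Wnt4, had 98.3 CPM of each, and its Fth1 level of 12561 CPM lay above the 7579 CPM of sub-cluster 0. Sub-cluster 1, led by the monocyte genes Chil3, Fn1 and Ly6c2, had 0 UMIs of Slc40a1 in 21 cells, which allows up to 38.2 CPM, and 5 UMIs of Hmox1. Sub-cluster 0 held 47.9% of control and 27.7% of model macrophages, sub-cluster 2 28.1% and 32.7%, and sub-cluster 3, of low-RNA cells, 13.4% and 25.2%. Within sub-cluster 0 the Hmox1 ratio was 0.807 (0.539 to 1.18), within sub-cluster 2 it was 0.619 (0.367 to 1.03), and with both weighted equally it was 0.745 (0.551 to 1.01). The Slc40a1 ratio was 1.30 (0.576 to 2.82) in sub-cluster 0 and 1.81 (1.08 to 3.10) in sub-cluster 2, and 1.60 (1.07 to 2.39) with both weighted equally.

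Among cells with a Hmox1 UMI, 14.7% of control (10 of 68) and 27.1% of model cells (13 of 48) also had one of Slc40a1, against 15.4% and 14.9% of the others. Cells with a Hmox1 UMI were deeper, with medians of 4647 and 4358 UMIs against 3220 and 3079, so the shares within a library are not matched for depth. Of 9 measured resident macrophage genes 3 were called lower (Mrc1, Lyve1 and Folr2) and 0 higher, with summed levels of 10364 and 9835 CPM, and of 5 measured monocyte genes 2 were higher (Chil3, at 13 and 101 UMIs, and Ms4a4c) and 0 lower, with 805 and 1040 CPM. Vsig4 and S100a9 were at 0 in these cells of both libraries. The part of these shifts in the Hmox1 and Slc40a1 values was not tested beyond the sub-cluster ratios. Haemoglobin genes, which would mark red cell RNA, had 0 UMIs in macrophages of either library.

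**Figure D5:**
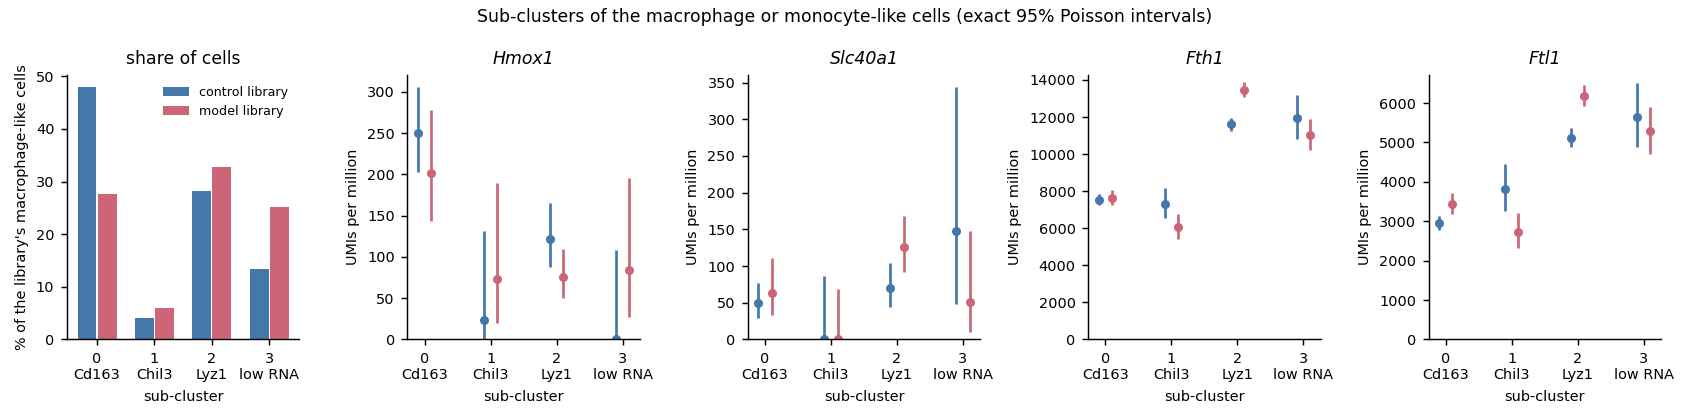
Left, share of each library's macrophage or monocyte-like cells (%) in 4 sub-clusters; right, level of 4 genes (CPM, exact 95% Poisson intervals) in each. The Cd163 sub-cluster makes up 47.9% of control and 27.7% of model cells and holds the highest Hmox1 level, while Slc40a1 is 0 in the Chil3 sub-cluster.

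Other genes of iron and haem handling, a list of 51, had a smaller median ratio than the members in enterocyte-like cells. Of 34 measured genes 6 were called higher and 1 lower there, against 15.6% and 9.32% of all genes, so the higher share was near that of all genes. The list's median log2 ratio was 0.30. The highest were haem oxygenase 2 (Hmox2, 19.6 and 35.3 CPM, ratio 1.80) and biliverdin reductase (Blvra, 8.47 and 15.2 CPM, ratio 1.80). The lower one was Bach1, a haem-sensing repressor of Hmox1, at 146 and 77.9 CPM (ratio 0.533, 0.492 to 0.577). In crypt-like cells, where 1.71% of all genes were called higher and 3.99% lower, 0 of 39 measured genes were higher and 2 lower, the iron-binding secreted proteins Lcn2 (95 and 71 UMIs, ratio 0.602) and Ltf (15 and 6 UMIs, ratio 0.322), with a median of 0.01. In macrophages, where 6.67% of all genes were called higher and 4.3% lower, 3 of 31 were higher, the haem synthesis enzyme Alas1 (ratio 1.77), the haemopexin receptor Lrp1 (1.71) and Flvcr1, described as a haem exporter (1.69), and 3 lower, Bach1 (224 and 124 CPM, ratio 0.551, 0.430 to 0.701), the iron sensor Fbxl5 (0.622) and transferrin (Trf, 422 and 263 CPM, ratio 0.623), with a median of −0.08.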

How the data were processed

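The deposited matrices hold raw UMI counts, as integers per the file headers. Those headers give Cell Ranger 7.0.1; Cell Ranger 4.0 and the build GRCm39 stand in the submitters' processing notes. Which annotation was used, and whether intronic reads counted, is not stated in these sources. Kept barcodes had 500 UMIs, 200 genes or more and a mitochondrial share of up to 25%. After scaling each cell to 10000 UMIs and taking logs, 2000 variable genes gave 30 principal components, 15 neighbours and Leiden clusters at resolution 1 (scanpy 1.11.5, igraph 0.11.9, scikit-learn 1.9.0), with both libraries together and no batch correction. Clusters were named where 3 or more markers reached 2-fold over the remaining cells and 10% of the cluster's cells. No name was given where another class had more markers among the 10 leading genes. The same held where none of its own markers was among them and the cluster's median UMI count was under that of its libraries divided by 3. This left clusters 3 (3 enterocyte markers) and 5 (7 T cell markers) unnamed. Macrophage and crypt classes were clustered again at resolution 0.5. UMIs were summed per library and class; levels carry exact Poisson, ratios and shares exact binomial intervals (Clopper-Pearson), and equally weighted ratios a normal interval on the log scale. The ratio rule was tried on simulated counts that held counting error only, the error its intervals assume. Such a trial cannot show how the rule fares with spread between cells or libraries. Scrublet called 0 doublets in 7329 control and 7913 model cells, a rate taken to mean that it did not work on these cells, so no doublets were removed. Its scores were still used for 1 alternative without the 8% highest (562 control and 601 model cells). Members were named in every class with at least 20 cells in a library; other iron genes were the 3 highest and 3 lowest called per class, of which 1 is not reported here; the 3 nearest genes were taken for members with at least 200 UMIs. The members and lists were chosen with earlier results of these data known. GRCm38 coordinates come from a match to GENCODE M21 only.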

Additional observations from a re-analysis of the deposited data

Results flagged for a closer look

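Slc40a1 was called in opposite directions in different cells under the same comparison. The model over control ratio was 2.46 in enterocyte-like cells (13 and 38 UMIs) and 1.52 in macrophage or monocyte-like cells (49 and 66 UMIs), but 0.358 in crypt-like cells (99 and 44 UMIs). The call was made in 9 of 13 alternatives in enterocytes, 6 of 15 in macrophages and 12 of 13 in crypt cells. Within enterocyte cluster 2 the ratio was 1.65 (0.756 to 4.12), not called. Nor was it called in the lower villus bin (9 and 36 UMIs, ratio 1.78, 0.842 to 4.20). The same held in the proximal bin (3 and 25 UMIs, ratio 3.13, 0.955 to 16.2). The other villus and region bins had too few UMIs. The difference between the class ratios was not tested, since each group has 1 library. Cluster 8, which has no class name and enters none of the 3 class comparisons, held more Slc40a1 UMIs than any of them (156 and 140) and had a ratio of 0.510.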

How the results depend on the processing

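No paired analysis was possible because each group holds 1 library, so the shared replicate number pairs nothing. Of the 8 members, 4 were called in enterocyte-like cells, 1 in crypt-like cells and 3 in macrophages. In enterocytes the count was 0 at a mitochondrial limit of 10%, 0 with the clusters weighted equally (the Slc40a1 ratio was then 1.82, 0.792 to 4.16), 1 in the cluster with most cells, 1 at a fold limit of 2 and 2 with each library clustered alone. In crypt cells it was 0 at a mitochondrial limit of 10% (311 control and 420 model cells, Slc40a1 log2 ratio −0.999 with an interval including 0), 2 with no mitochondrial limit, where Hmox1 was called lower too, and 2 with at least 1000 UMIs a cell, where new clustering left 212 control and 228 model cells in the class and Tfrc was called higher. Thinning to 1000 UMIs left the count at 1, but the call was then Tfrc. In macrophages the count was 0 on thinned cells, 0 at a fold limit of 2, 1 at Leiden resolution 0.5 and 1 with the sub-clusters weighted equally, an alternative chosen after seeing the data. Only 1 cluster held the macrophages, so no largest cluster was taken. Called members changed sign in 3 cases: Hmox1 in macrophages on thinned cells (log2 ratio 0.028), Slc40a1 in macrophages with each library clustered alone (−0.16) and Tfrc in enterocytes in the cluster with most cells (−0.84). The cause was not tested. Under the other alternatives the counts were within 1.5 times those above. Slc40a1 in crypt cells kept its sign under all 13 alternatives with enough UMIs, from −2.72 to −0.999 on the log2 scale, and Fth1 in enterocytes under all 15, from 0.11 to 1.43. UMIs were few for Cybrd1 everywhere, for Slc40a1 and Hmox1 in enterocytes and for Heph in macrophages, which limits what their ratios show. Whether depth or a low level gave these counts was not tested.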
